A study of Rattus norvegicus with 8 samples.

Results

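The genes described here are chaperones and stress regulators of the endoplasmic reticulum, measured in rat whole blood: the chaperones Hspa5, Hsp90b1 and Calr, the disulfide isomerases Pdia4 and Pdia3, and the transcription factors Xbp1, Atf4 and Ddit3. They were chosen by name, as every probe set whose platform annotation gives exactly 1 gene symbol equal to one of these. All 8 genes were found, with 9 probe sets, out of 14217 named genes and 31042 probe sets, and Pdia3 was the gene with more than 1 probe set. The blood came from male Wistar rats that reached the laboratory at 7 weeks of age and were then kept on a high-fat diet (Quick fat) or a normal diet (CE-2) for 8 weeks, in groups of 10. Of each diet, 4 animals were profiled, 1 array per animal, after an overnight fast on day 56, and the arrays are called high-fat replicates 1 to 4 and normal replicates 1 to 4. Another diet, with mulberry leaf powder, is not analysed here. All animals thus shared strain, sex and source, and the labels name no genetic change and no agent beside the diet.

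Proteins that are secreted or sit in membranes fold inside the endoplasmic reticulum. When unfolded protein builds up there, the sensors Ern1, Atf6 and Eif2ak3 start the unfolded protein response: Ern1 splices the Xbp1 message into one for an active factor, Atf6 is cut to release a factor, and Eif2ak3 slows translation while favouring that of Atf4. Spliced Xbp1 and cleaved Atf6 raise chaperone genes such as Hspa5, while Atf4 raises genes of amino acid supply and, under lasting stress, Ddit3, which promotes cell death. Among blood cells, antibody-secreting plasma cells are known for high Xbp1. The 3' arrays used here do not tell spliced from unspliced Xbp1 message.

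In mammals, a bipartite promoter motif named the endoplasmic reticulum stress element is the binding site through which these factors raise chaperone genes. It was first described in the promoters of Hspa5, Hsp90b1 and Calr, so its presence there is no finding. Its letters are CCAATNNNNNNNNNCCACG, where N is any base. RefSeq promoter windows of 300 bases, from 250 before to 50 after the start site (build GRCr8), were given for 7 of the 8 genes, Pdia3 being the exception, and both strands were searched. The element was found in 4 of these 7, Hspa5, Hsp90b1, Xbp1 and Calr, and in 22 of 33469 windows of the same length over all genes, 0.0657%. The windows of these 4 genes are shown because the first 3 genes moved together over the animals and Calr, of far smaller spread, did not. They run 5' to 3' on the strand of the gene, with the element in capitals, whichever strand it was read on:
Hspa5, chr3:38452766-38453065, plus strand: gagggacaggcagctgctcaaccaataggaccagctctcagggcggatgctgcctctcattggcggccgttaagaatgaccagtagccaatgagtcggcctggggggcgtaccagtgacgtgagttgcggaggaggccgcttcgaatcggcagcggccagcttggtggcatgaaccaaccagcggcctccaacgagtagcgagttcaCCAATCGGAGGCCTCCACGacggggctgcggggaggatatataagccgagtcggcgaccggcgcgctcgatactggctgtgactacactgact
Hsp90b1, chr7:23012244-23012543, minus strand: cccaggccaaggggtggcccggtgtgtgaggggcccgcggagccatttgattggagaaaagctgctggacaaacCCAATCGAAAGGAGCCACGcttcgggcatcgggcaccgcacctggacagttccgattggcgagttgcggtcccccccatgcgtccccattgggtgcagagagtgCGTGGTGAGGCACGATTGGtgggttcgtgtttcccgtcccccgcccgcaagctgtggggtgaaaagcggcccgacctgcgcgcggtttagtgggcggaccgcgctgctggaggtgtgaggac
Xbp1, chr14:84604373-84604672, plus strand: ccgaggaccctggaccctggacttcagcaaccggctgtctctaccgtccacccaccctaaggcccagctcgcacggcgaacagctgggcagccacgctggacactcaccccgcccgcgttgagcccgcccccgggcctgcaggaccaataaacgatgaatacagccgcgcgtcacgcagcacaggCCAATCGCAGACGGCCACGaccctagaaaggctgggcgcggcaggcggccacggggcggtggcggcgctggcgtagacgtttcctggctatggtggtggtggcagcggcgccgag
Calr, chr19:40213117-40213416, plus strand: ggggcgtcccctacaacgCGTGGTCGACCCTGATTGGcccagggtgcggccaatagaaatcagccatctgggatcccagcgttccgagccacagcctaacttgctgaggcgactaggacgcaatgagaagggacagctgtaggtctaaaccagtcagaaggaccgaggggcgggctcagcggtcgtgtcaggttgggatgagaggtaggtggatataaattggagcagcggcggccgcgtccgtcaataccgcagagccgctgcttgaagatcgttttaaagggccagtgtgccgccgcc

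The element read in its own direction, with its fixed letters in capitals, was the following in each gene. The second match of Hsp90b1 and the match of Calr lie on the strand opposite to the gene:
Hspa5, from 43 bases before the start site: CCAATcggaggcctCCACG
Hsp90b1, from 176 bases before the start site: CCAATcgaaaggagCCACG
Hsp90b1, from 72 bases before the start site: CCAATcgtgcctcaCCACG
Xbp1, from 65 bases before the start site: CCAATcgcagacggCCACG
Calr, from 232 bases before the start site: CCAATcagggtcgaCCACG

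No match to these letters lay in the windows of Pdia4, Atf4 and Ddit3. None of the 7 windows held a match to the unfolded protein response element, TGACGTGG, or the amino acid response element, TGATGNAAT, which occurred in 0.595% and 1.09% of all windows. Stress element II, which is ATTGG, any base and then CCACG, had no match in the 7 windows either and occurred in 0.0508% of all windows. The stress element, stress element II and the unfolded protein response element read on the other strand share the letters CCACG.

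The values are those the authors deposited, which read as log2 intensities. They differ between arrays by far less than RNA amounts usually do. Over the 8 arrays, the SD of a typical probe set (the median) was 6.07e-06 and that at the 99th percentile was 4.13e-04, so no fold changes are given. Levels in single animals are given as scaled levels, the deviation from the mean of that probe set in units of its SD over the 8 arrays. Diet differences are the high-fat mean less the normal mean, on the deposited scale, and also divided by that probe set's pooled SD inside the diets (in within-group SDs). Brightness differs between probe sets for the same RNA amount, so levels were not ranked between genes. Arrays stood apart in different ways: normal replicate 3 had the largest mean absolute scaled level over all probe sets, 0.997 against 0.672 to 0.802 in the other 7, and high-fat replicate 4 held the highest value of 59.2% of the probe sets in the top 1% of SD. All 40 measured markers of 7 blood cell types, of 48 listed, had a mean level above the 25th percentile of the probe sets.

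On the deposited scale the mean levels over the 8 arrays were 8.09 for Hspa5, 8.13 for Hsp90b1, 8.91 for Calr, 6.54 for Pdia4, 8.74 and 6.82 for the brighter and dimmer probe sets of Pdia3, 7.46 for Xbp1, 9.51 for Atf4 and 7.15 for Ddit3. The median of each array was 6.60. The genes differed widely in how much they varied between animals. Hspa5, Hsp90b1 and Xbp1 had SDs of 7.40e-04, 0.00118 and 0.00105, which lay at the 99.4th, 99.6th and 99.5th percentile of all probe sets. The brighter Pdia3 probe set (3.78e-05) lay at the 90.1st percentile and Atf4 (2.46e-05) at the 85.3rd. Calr, with an SD of 2.62e-06, lay at the 23.6th. Pdia4, Ddit3 and the dimmer Pdia3 probe set lay between, at the 54.4th, 43.0th and 68.8th.

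Hspa5, the main Hsp70 chaperone of the endoplasmic reticulum, had scaled levels of -0.79, 0.05, -0.72 and 2.06 in high-fat replicates 1 to 4, against -0.38, 0.05, -0.99 and 0.71 in normal replicates 1 to 4. High-fat replicate 4 was highest and normal replicate 4 came next, while normal replicate 3 was lowest, and the diets overlapped. Hsp90b1, the Hsp90 chaperone of the same compartment, had scaled levels of -0.19, -0.05, -0.71 and 2.02 in high-fat animals, against -0.42, -0.03, -1.31 and 0.70 in normal animals. The highest, the second highest and the lowest animals were those of Hspa5.

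Xbp1, the factor spliced by Ern1, had scaled levels of -0.63, 0.16, -0.77 and 2.20 in high-fat animals, against -0.51, 0.10, -0.87 and 0.33 in normal animals. Its 2 highest animals and its lowest were again those of Hspa5. The brighter probe set of Pdia3, an isomerase that works on glycoproteins together with Calr, had scaled levels of -0.69, 0.44, -1.22 and 1.39 in high-fat animals, against -0.34, 0.54, -1.17 and 1.06 in normal animals. High-fat replicate 4 and normal replicate 4 were highest here too, with high-fat replicate 3 and normal replicate 3 lowest. In each of these 4 probe sets the diets overlapped.

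The other probe sets ordered the animals differently. Calr, a chaperone that binds calcium and sugar chains, had scaled levels of -0.50, 1.18, 0.86 and 0.40 in high-fat animals, against -0.12, -1.74, -0.87 and 0.80 in normal animals. Pdia4, another isomerase, had scaled levels of 0.43, -0.09, 0.57 and 1.71 in high-fat animals, against -1.21, -0.68, -1.18 and 0.46 in normal animals. For Pdia4, 3 of the 4 normal animals lay below all high-fat animals, and normal replicate 4 lay above high-fat replicates 1 and 2. The dimmer Pdia3 probe set had scaled levels of 0.35, -1.06, -1.22 and -0.14 in high-fat animals, against 0.08, 0.13, -0.17 and 2.05 in normal animals. It was highest in normal replicate 4 and correlated with the brighter one at r = 0.43, so the 2 probe sets of this gene disagree.

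Atf4, the factor favoured when Eif2ak3 is active, had scaled levels of 1.52, 0.45, 0.03 and -0.46 in high-fat animals, against -0.90, 0.60, -1.70 and 0.47 in normal animals. High-fat replicate 4 was the lowest of its group here. Ddit3 had scaled levels of 1.14, -1.60, -0.12 and 1.07 in high-fat animals, against -0.63, -0.44, 1.07 and -0.50 in normal animals. Its lowest animal was high-fat replicate 2, and normal replicate 3, lowest for the chaperone Hspa5, was the highest of its group. Both genes overlapped between the diets.

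**Figure D1:**
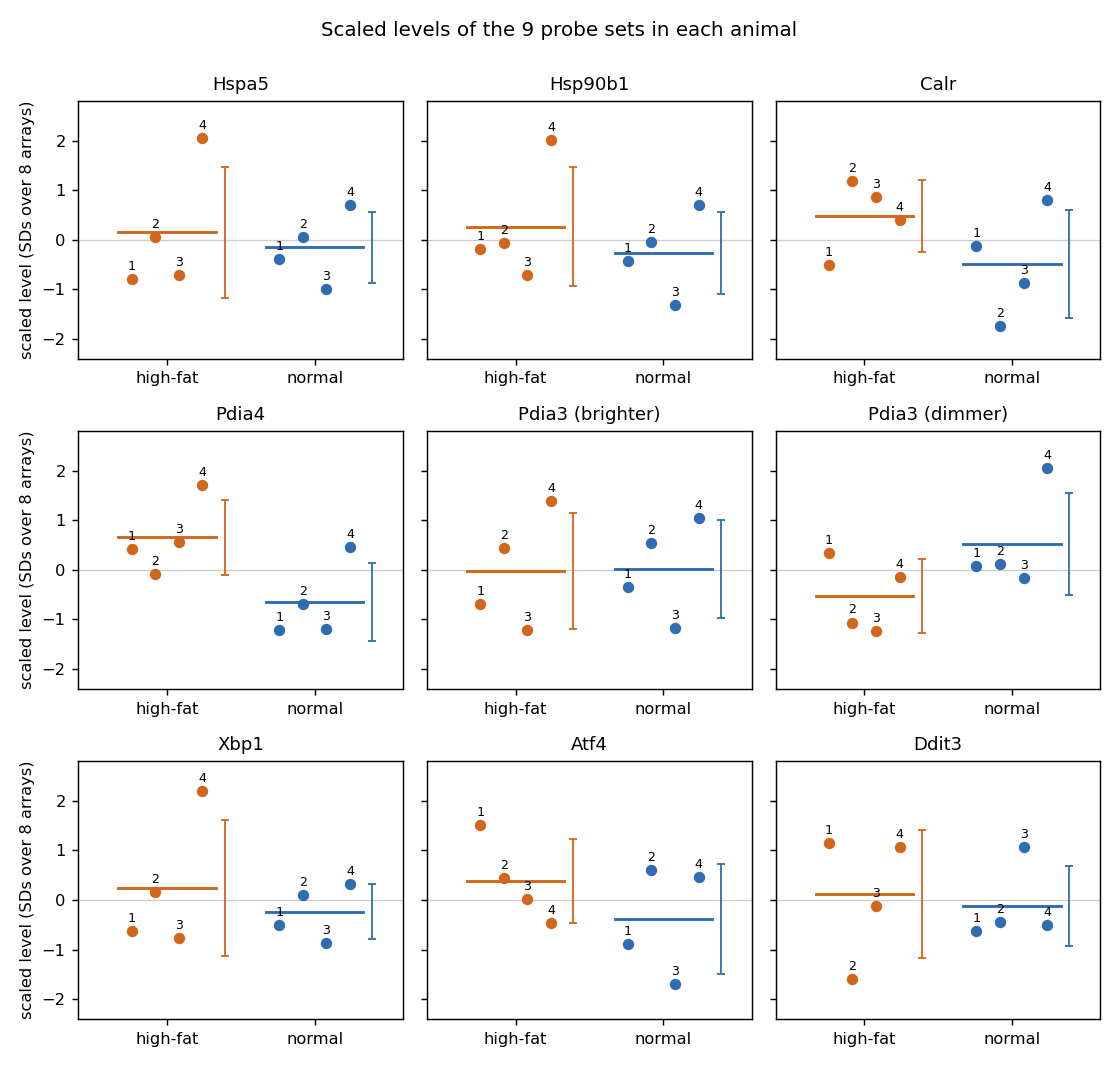
Scaled level (vertical axis, in SDs over the 8 arrays) of each of the 9 probe sets in high-fat and normal animals. Points are animals with their replicate number, bars are group means and the lines beside them 1 SD either way (n = 4 each). High-fat replicate 4 is the highest animal for Hspa5, Hsp90b1 and Xbp1, at 2.06, 2.02 and 2.20.

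Hspa5, Hsp90b1, Xbp1 and the brighter Pdia3 probe set varied together over the animals. Each gene was represented by its brightest probe set, and Pearson's r over the 8 arrays was tested for all 28 pairs with an exact permutation test over the 40320 pairings of arrays (two-sided, Benjamini-Hochberg over the 28 pairs). At an adjusted p of 0.05, 6 pairs passed, and they are the 6 pairs among those 4 genes. Spearman's rho also passed in 6 pairs.

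For Hspa5 and Xbp1, r was 0.983 (exact p = 9.92e-05, adjusted p = 9.26e-04) and rho was 0.952 (exact p = 0.00114, adjusted p = 0.00799). Hspa5 and Hsp90b1 had r = 0.966 (exact p = 3.72e-04, adjusted p = 0.00174) and rho = 0.929 (exact p = 0.00223, adjusted p = 0.0104). For Hsp90b1 and Xbp1 the values were r = 0.955 (exact p = 9.92e-05, adjusted p = 9.26e-04) and rho = 0.952. These 3 genes are those of the widest spread in the set. Their windows hold the stress element, as that of Calr does, and the part of the element in the covariation was not tested.

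Pdia3 followed them with r = 0.910 to Hspa5 (exact p = 1.74e-04, adjusted p = 0.00111), r = 0.884 to Hsp90b1 (exact p = 1.98e-04, adjusted p = 0.00111) and r = 0.873 to Xbp1 (exact p = 9.92e-05, adjusted p = 9.26e-04). Its rho was 0.929, 0.952 and 0.952 in the same order. These 3 correlations rest on the brighter probe set and on the scaling of the arrays. With the mean of both Pdia3 probe sets r was 0.696, 0.707 and 0.605, and none passed. With each array centred on its median they turned to -0.368, -0.474 and -0.469. The medians of the 8 arrays have an SD of 6.14e-05, which is more than the whole spread of Pdia3 (3.78e-05) and far less than that of Hspa5, Hsp90b1 and Xbp1.

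Covariation was present within the diets as well as across them. On residuals from the diet means, permuting within diets (576 permutations), the same 6 pairs had r from 0.909 to 0.987, each with an adjusted p of 0.0162. Without high-fat replicate 4, r over the other 7 arrays was 0.958 for Hspa5 and Xbp1, 0.894 for Hspa5 and Hsp90b1, and 0.867 for Hsp90b1 and Xbp1 (exact permutation test, adjusted p = 0.0111, 0.0287 and 0.0222). The 3 pairs with Pdia3 lay between 0.888 and 0.985. Leaving out the 2 arrays farthest from the median of the first gene gave r = 0.967 for Hspa5 and Xbp1, 0.784 for Hspa5 and Hsp90b1, and 0.847 for Hsp90b1 and Xbp1.

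The remaining 22 pairs did not pass. Pdia4 had r = 0.671 to Hspa5, 0.769 to Hsp90b1 and 0.682 to Xbp1 (exact p = 0.0648, 0.0249 and 0.0559, adjusted p = 0.201, 0.0997 and 0.196). Without high-fat replicate 4 these were 0.24, 0.49 and 0.21. Calr, whose window also holds the element, had r = 0.293 to Hspa5 (exact p = 0.490, adjusted p = 0.830), 0.291 to Hsp90b1 and 0.234 to Xbp1. Its highest r with any of the 7 other genes was 0.515, to Pdia4. The SD of Calr, 2.62e-06, was far below that of Hspa5 (7.40e-04) and of the array medians (6.14e-05). At that spread a low r cannot show that Calr behaves differently. Atf4 had r = 0.034 to Hspa5 and 0.032 to Xbp1, and Ddit3 had r = 0.016 to Hspa5. Atf4 and Ddit3, which share a branch of the response, had r = -0.179 with each other (exact p = 0.674, adjusted p = 0.858).

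**Figure D2:**
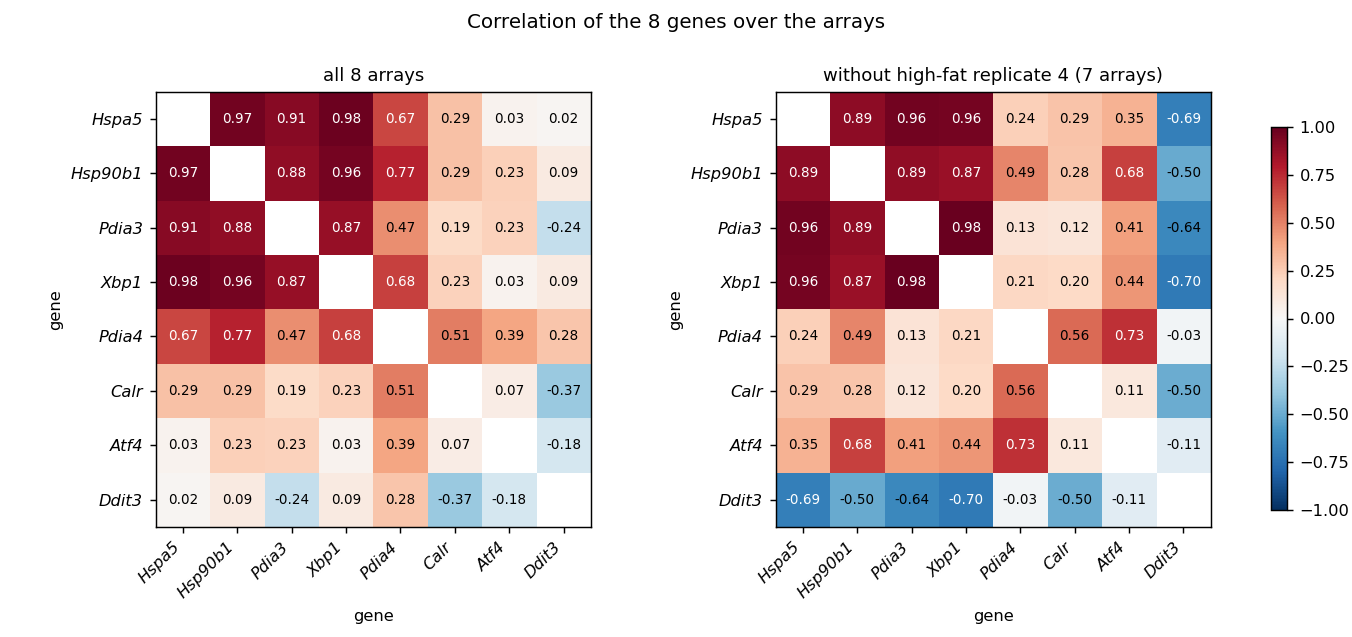
Pearson r between the 8 genes (brightest probe set each) over all 8 arrays on the left and without high-fat replicate 4 on the right. The block of Hspa5, Hsp90b1, Pdia3 and Xbp1 holds values of 0.87 and above in both, while r of Ddit3 with Hspa5 was 0.02 with that animal and -0.69 without it.

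**Figure D3:**
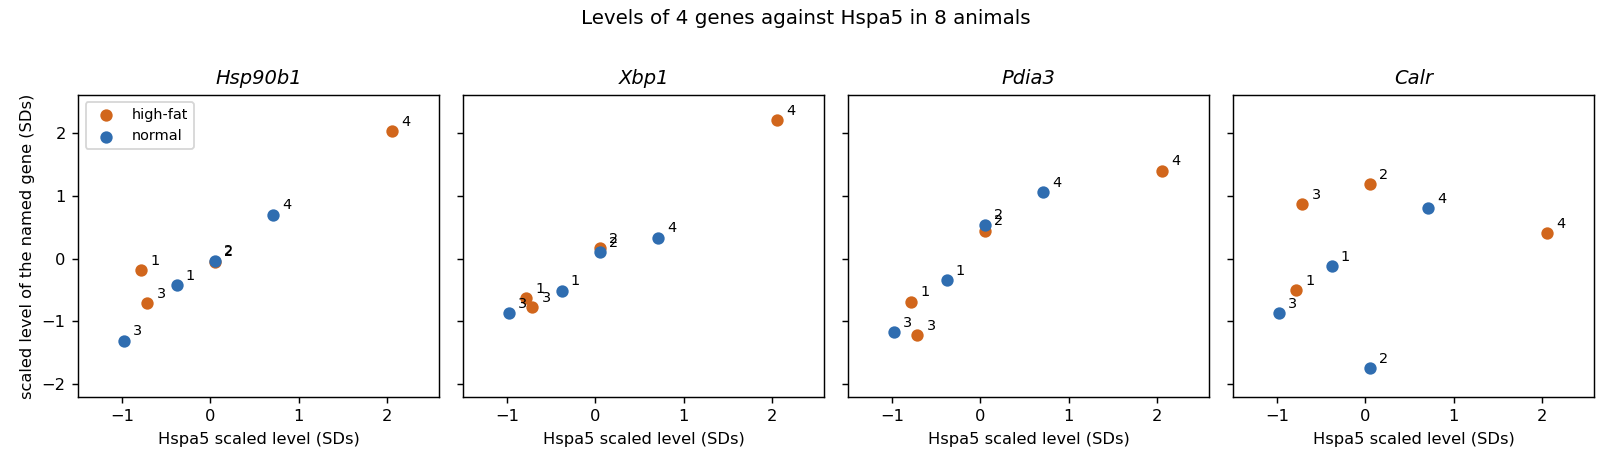
Scaled levels of Hsp90b1, Xbp1, Pdia3 (brighter probe set) and Calr (vertical axes, in SDs) against that of Hspa5 (horizontal axes) in 4 high-fat and 4 normal animals, marked by replicate number. The animals follow a line for the first 3 genes (r = 0.966, 0.983 and 0.910) and scatter for Calr (r = 0.293). Each gene is scaled by its own SD, which is 2.62e-06 for Calr and 7.40e-04 for Hspa5.

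Blood cell markers differed between these animals as well. All 6 monocyte markers (Cd14, Csf1r, Cx3cr1, Cd68, Vcan and Lyz2) were highest in high-fat replicate 4, as Hspa5 was. Their mean scaled level was 2.13 in that animal and between -0.455 and -0.163 in the other 7. Single markers ran more widely over those 7 animals, as Csf1r did, between -1.01 and 0.154. Of the monocyte markers, Cd14, Csf1r and Cd68 had r of 0.899, 0.898 and 0.874 with Hspa5, and Lyz2, Vcan and Cx3cr1 had 0.721, 0.566 and 0.495. The neutrophil-listed receptor Fcgr3a had 0.911, with a scaled level of 2.12 in high-fat replicate 4. The other neutrophil markers had r from -0.179 (Cxcr2) to 0.563 (Camp). The 7 neutrophil markers stood at 0.814 in that animal, within the range of the other animals (-1.04 to 0.841). The 5 measured platelet markers stood at -1.39 in it, below the other animals (-0.342 to 0.628). Plasma cell markers (5 of 8 listed were measured) had a mean scaled level of 0.0329 in high-fat replicate 4. Of the 5, 1 was highest there, Prdm1. This mean covers markers that went opposite ways, with Jchain at 0.588 and Tnfrsf17 at -1.13 in that animal. Plasma cell markers had r with Hspa5 from -0.737 (Tnfrsf17) to 0.538 (Jchain). B cell markers (4 of 7 measured) stood at -0.115 in high-fat replicate 4 and none of them was highest there. The 7 T cell markers stood at -0.475 in it, and none of them was highest there either. For B cell markers r with Hspa5 ran from 0.126 (Cd79b) to 0.694 (Cd22). For T cell markers it ran from -0.458 (Cd28) to 0.605 (Lck). Erythroid markers had r from -0.752 (Alas2) to 0.372 (Klf1), and platelet markers from -0.856 (Ppbp) to 0.0782 (Selp). In whole blood, more cells of a type and more RNA per cell cannot be told apart. The 6 pairs passed without high-fat replicate 4, as given above, and also without normal replicate 3, with r between 0.847 and 0.982. Leaving out an animal does not separate the genes from these markers, whose part in the correlations was not tested.

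Against all other named genes, Hspa5 had a median r of -0.01, and 171 of 14216 genes (1.2%) reached r of at least 0.9 with it. Among the 7 other members of the set, Hsp90b1, Xbp1 and Pdia3 did. Xbp1 ranked 2nd of the 14216, Hsp90b1 9th and Pdia3 128th. Seen from Xbp1, Hspa5 ranked 4th, and from Hsp90b1 it ranked 10th. For Hsp90b1, Xbp1 and Pdia3 the shares of genes at r of at least 0.9 were 1.47%, 1.43% and 2.15%. For Calr, Pdia4, Atf4 and Ddit3 they were 0.0422%, 0.106%, 0.0914% and 0.0914%, and no other of the 8 genes reached it.

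Genes of large spread shared the pattern more often. In the top 1% of SD, 44 of 202 genes (21.8%) reached r of at least 0.9 with Hspa5. Without high-fat replicate 4, 3 of 202 did (1.49%), against 199 of 14216 genes in all (1.4%). Xbp1 and Pdia3 were still above 0.9 without that animal, and Hsp90b1 was just below, at 0.894. The number of genes at 0.9 grew whichever animal was left out, where r is taken over 7 arrays. It was 281, 273, 216 and 199 without high-fat replicates 1 to 4. Without normal replicates 1 to 4 it was 284, 360, 185 and 297. These correlations are descriptions over 8 arrays that all genes share, and they were not run with each array centred on its median.

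By the fixed rule of the 3 most similar genes, Hspa5 was followed by Atp2a2 (r = 0.984), the calcium pump of the endoplasmic reticulum, Xbp1 (0.983) and the adaptor Nck1 (0.981). The genes closest to Hsp90b1 were Dpysl2 (r = 0.987), Psap (0.982), the precursor of lysosomal saposins, and Mad1l1 (0.978), a spindle checkpoint protein. Xbp1 was closest to Pira2 (r = 0.993), a paired immunoglobulin-like receptor, the transcription factor Zeb2 (0.988) and Chsy1 (0.987), a chondroitin synthase. For the brighter Pdia3 probe set they were Tvp23b (r = 0.984), Cln6 (0.981) and Cox6c (0.980), a subunit of cytochrome c oxidase.

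Other genes of the endoplasmic reticulum were measured through 5 lists, of which 57 of 59 genes had a named probe set. Their median r with Hspa5 was 0.546, against -0.01 over all genes. It was 0.765 for 17 folding genes, 0.686 for 10 degradation genes, 0.553 for 10 translocation genes, 0.466 for 8 sensors and activators, and -0.095 for 12 targets of Atf4 and Ddit3. Without high-fat replicate 4 the median over the 57 genes was 0.553, against 0.0552 over all genes, and that of the folding genes was 0.650. The correlations of these lists were not run with each array centred on its median, which turned the sign of those of Pdia3.

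At r of at least 0.9 with Hspa5 were 5 of the 57 (8.77%, against 1.2% of all genes). They were Vcp (r = 0.946), the ATPase that pulls proteins out for degradation, Dnajb11 (0.933), a cochaperone of Hspa5, and P4hb (0.932), Sdf2l1 (0.910) and Pdia6 (0.907). P4hb and Pdia6 are disulfide isomerases. The SDs of Vcp (5.28e-05) and Dnajb11 (9.22e-06) over the arrays were below that of the array medians (6.14e-05). Those of P4hb (3.79e-04), Sdf2l1 (4.20e-04) and Pdia6 (2.72e-04) were above it. In high-fat replicates 1 to 4, Vcp had scaled levels of -0.47, 0.19, -1.05 and 1.63, against -0.12, 0.24, -1.40 and 0.97 in normal replicates 1 to 4. This is the order of the Hspa5 group at the top, with both replicates 4 highest and normal replicate 3 lowest. Without high-fat replicate 4, r with Hspa5 was 0.951 for Vcp, 0.910 for Dnajb11, 0.820 for P4hb, 0.677 for Sdf2l1 and 0.889 for Pdia6. In that setting 3 of the 57 genes of the lists (5.26%) reached 0.9, against 1.4% of all genes. Without normal replicate 2, 8 of the 57 did (14.0%), and the share of all genes was also larger, at 360 of 14216 (2.53%).

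Promoter windows were given for 49 of the 57 genes, and 4 of these (8.16%, against 0.0765% of all genes with a window) held the stress element. The lists were chosen as genes of the endoplasmic reticulum and its stress response, so a larger share there is no finding. By the brightest probe set, Canx, the membrane-bound relative of Calr, had r = 0.865 with Hspa5, the secreted protein gene Creld2 0.663, the oxidase gene Ero1b 0.334 and Dnajc3, an inhibitor of Eif2ak3, 0.035. Of the 171 genes at r of at least 0.9, 142 had a window, and the 2 with the element (1.41%) were Hsp90b1 and Xbp1. Among the 5 listed genes at that level, Dnajb11 held stress element II and Vcp the unfolded protein response element. Below that level, Herpud1 (r = 0.781) held stress element II and Dnajc10 (0.821) the unfolded protein response element. Hyou1 held both motifs, with r = -0.131 by its brightest probe set and -0.885 by its other one.

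**Figure D4:**
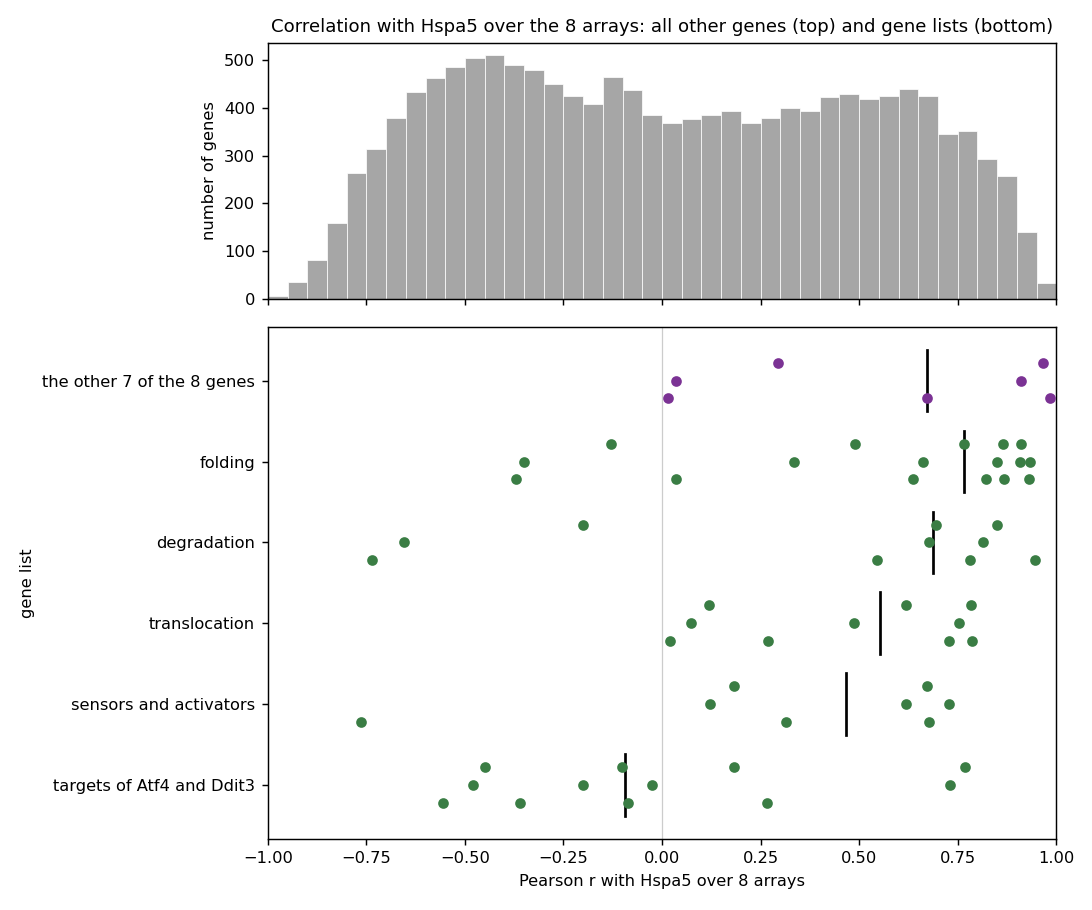
Pearson r with Hspa5 over the 8 arrays (horizontal axis). The upper panel counts the 14216 other genes, and the lower panel shows the other 7 of the 8 genes and each gene of 5 further lists as points, with the median as a black line. The median is 0.765 for folding genes and -0.095 for targets of Atf4 and Ddit3.

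None of the 8 genes passed the test between the diets. By limma, an adjusted p under 0.05 was reached by 0 of the 9 probe sets, as by 0 of all 31042 (0.0%). At an unadjusted p under 0.05 there was 1 of the 9, Pdia4, against 2.25% of all probe sets (0.95% in its direction, higher in high-fat animals). No probe set of the 9 had diets that did not overlap, against 1.44% of all. The adjusted p was 1 for each of the 9 by limma.

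Pdia4 had a mean scaled level of 0.65 ± 0.76 in high-fat animals and -0.65 ± 0.78 in normal animals (SD, n = 4 each). Its difference by limma was 9.02e-06 ± 3.62e-06 (SE), which is 1.70 within-group SDs (unadjusted p = 0.0424, adjusted p = 1). The difference was between 6.59e-06 and 1.16e-05 with each animal left out, but with each array centred on its median it was -5.69e-05. That centring moves every difference by -6.60e-05, more than the difference of Pdia4, Calr, Atf4 or Ddit3.

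Among the covarying genes, the chaperone Hspa5 differed by 2.24e-04 ± 5.24e-04 (SE, 0.284 within-group SDs), Hsp90b1 by 6.32e-04 ± 8.15e-04 (0.515) and the factor Xbp1 by 5.00e-04 ± 7.27e-04 (0.457). Without high-fat replicate 4 these 3 differences were below 0, at -2.47e-04, -6.07e-05 and -1.85e-04. Calr differed by 2.54e-06 ± 1.78e-06 (1.05 within-group SDs), and by -6.34e-05 with centring. The Pdia3 probe sets differed by -1.43e-06 ± 2.71e-05 (-0.0352) and -1.15e-05 ± 6.63e-06 (-1.16). For the brighter one the sign was the opposite without high-fat replicate 1 or 3 or normal replicate 2 or 4 (7.01e-06, 1.37e-05, 5.08e-06 and 1.16e-05).

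Of the other regulators, Atf4 differed by 1.88e-05 ± 1.62e-05 (SE, 0.774 within-group SDs), and by -4.71e-05 with centring. Ddit3 differed by 1.21e-06 ± 3.60e-06 (0.229), by -6.47e-05 with centring, and by -4.63e-07 and -3.48e-07 without high-fat replicates 1 and 4. In all, 7 of the 8 genes had a difference above 0, against 47.4% of all genes and 46.6% of all probe sets, with a median of 0.486 within-group SDs, against -0.0374 over all genes. Hspa5, Hsp90b1 and Xbp1 varied together, so they are not separate counts. Without high-fat replicate 4 these genes, Ddit3 and the brighter Pdia3 probe set lay below 0. With centring, 3 of the 8 genes (Hspa5, Hsp90b1 and Xbp1) and 2.38% of all genes lay above 0, since it lowers every difference by the same amount. The 6 measured erythroid markers had mean scaled levels of 0.709, 0.356, 1.28 and -0.237 in high-fat animals, against -0.594, -0.530, -0.458 and -0.527 in normal animals. Their mean level thus did not overlap between the diets, but all of the single markers except Hemgn did. Alas2, for one, stood at -1.44 in high-fat replicate 4 and 0.755 in normal replicate 1. The part of these markers in the differences of the 8 genes was not tested.

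The 57 other genes of the endoplasmic reticulum gave no call either. By limma 0 of their 80 probe sets had an adjusted p under 0.05, and 1 had an unadjusted p under 0.05, against 2.25% of all probe sets. Above 0 lay 29 genes and below it 28, against 47.4% of all genes above 0. Their median was 0.0041 within-group SDs, against -0.0374 over all genes. Folding genes had 11 of 17 above 0 (median 0.0478), degradation genes 6 of 10 (0.197), translocation genes 5 of 10 (0.102), sensors and activators 2 of 8 (-0.374) and targets of Atf4 and Ddit3 5 of 12 (-0.0708).

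The probe set with the unadjusted p under 0.05 was that of Slc3a2, the heavy chain of amino acid transporters and a target of Atf4. It had scaled levels of 0.34, 0.80, 1.77 and -0.08 in high-fat animals, against -1.32, -0.24, -1.12 and -0.14 in normal animals. The diets did not overlap, which held for 1 of the 80 probe sets of the lists, against 1.44% of all probe sets. The difference was 1.82e-04 ± 6.04e-05 (SE), which is 2.01 within-group SDs (limma, unadjusted p = 0.0202 and adjusted p = 1). Asns, asparagine synthetase, and Ppp1r15a, a phosphatase subunit that restores translation, stood at 1.20 and 1.19 within-group SDs with overlapping diets. The smallest p in the other lists belonged to Dnajc3, Fkbp2 and Uggt1 (-1.29, 1.02 and -0.888 within-group SDs), to Edem3, Os9 and Edem2 (0.810, -0.668 and 0.480), to Atf6, Creb3 and Creb3l2 (-0.975, 0.759 and -0.626) and to Ssr1, Ssr3 and Sec61a1 (0.523, 0.475 and 0.405). Other probe sets of Fkbp2, at 0.231 and 0.0478, of Atf6, at -0.701, of Ssr1, at 0.212, and of Ssr3, at -0.0642, were nearer 0.

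**Figure D5:**
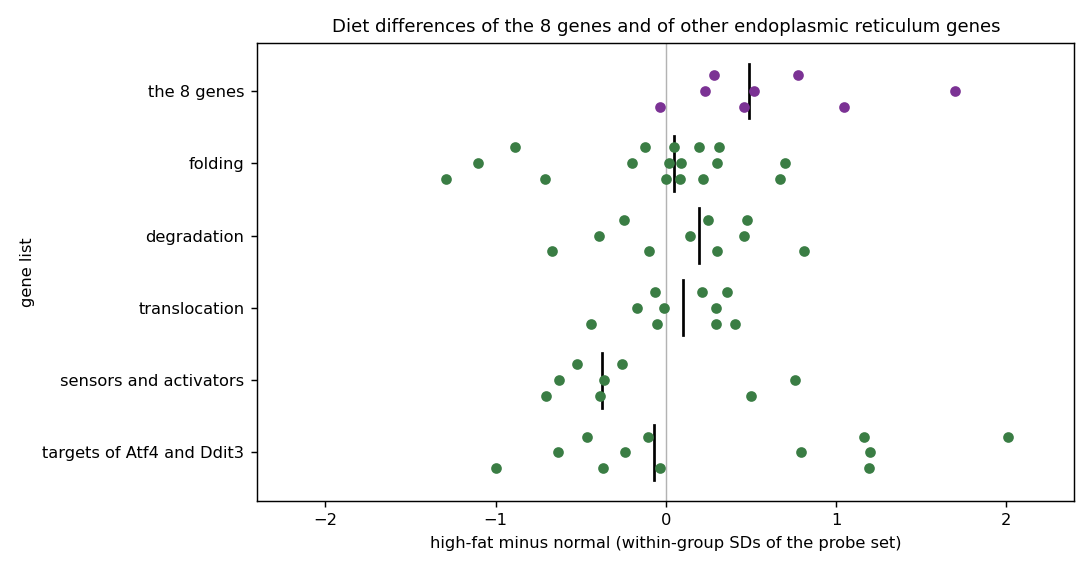
High-fat minus normal difference of each gene's brightest probe set (horizontal axis, in within-group SDs) for the 8 genes and 5 lists of other endoplasmic reticulum genes. Points are genes and black lines are medians, and the medians of the 5 lists lie between -0.374 and 0.197. The point farthest to the right among the 8 genes is Pdia4, at 1.70.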

How the data were processed

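Affymetrix 3' arrays were hybridised with biotinylated RNA amplified from total RNA of blood, per the labels' protocols. The log2 values are as the authors deposited them. Their background correction and normalization are not given in the sources used here, and the medians of the 8 arrays lay within 2.17e-04 of each other. Sample titles gave the groups and the replicate numbers. The labels call the arrays biological replicates, and each was taken as 1 animal.

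Of 31099 probe sets, 57 controls were left out. The platform annotation gave 1 symbol for 20826, several for 436 and none for 9780, and 20758 matched the GRCr8 gene table by gene number. The diets were compared with limma 3.58.1 under R 4.3.3 (lmFit, eBayes, two-sided, no covariates, Benjamini-Hochberg over 31042), and the code was tested on simulated data. Correlations used Python 3.11.15 with scipy 1.17.1. The number of arrays limits precision, and signal over background was not analysed here.

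Named outside the 8 genes were the 3 genes most correlated with each of them (mean above the 25th percentile) and the 3 genes of each list with the smallest p. Vcp, Dnajb11, P4hb, Sdf2l1, Pdia6, the genes with a promoter motif and the cell markers named singly were picked with their values in view. The genes, lists and tests were chosen with earlier results of these data known. Quantile normalization, centring, filters on dim probe sets, trended and robust variance, the replicate number as a block, Spearman's rho, diet residuals, all probe sets of a gene and leaving out each animal were tried as alternatives.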

Additional observations from a re-analysis of the deposited data

Results flagged for a closer look

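In 2 of the 18 groups of 4 values (9 probe sets, 2 diets), 1 animal lay far from the other 3 by Dixon's ratio of gap to range, with a limit of 0.829, where chance gives about 1 in 20. For the dimmer Pdia3 probe set, normal replicate 4 was high, with a ratio of 0.867 (scaled level 2.05). For Ddit3, normal replicate 3 was high in its group, with a ratio of 0.890 (scaled level 1.07).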

How the results depend on the processing

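No probe set of the 8 genes or of the other endoplasmic reticulum genes was called by limma under any of the 14 alternatives that tested it. Pdia4, whose mean is below the median of the probe sets, was removed by the filter at the median and so not tested there. A further quantile normalization called 32 of 31042 probe sets, against 0, put 3 of the 9 differences at 0 and that of Atf4 at -0.00210. Since it left Pdia4 flat over the arrays, the covariation was not run with it. Centring each array on its median turned the differences of Pdia4 (-5.69e-05), Calr (-6.34e-05), Atf4 (-4.71e-05) and Ddit3 (-6.47e-05). Centring adds 1 pattern, that of the medians, to all genes, and genes of smaller spread than the medians then follow it. It gave 24 covarying pairs against 6, a median r over pairs of -0.419 against 0.285, and r of Pdia3 of -0.368, -0.474 and -0.469 with Hspa5, Hsp90b1 and Xbp1. With all probe sets of a gene averaged, 3 pairs passed.

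Without each animal in turn, 6 to 7 pairs passed, and the median r over all 28 pairs was 0.221 to 0.417. The diet differences then ran from -2.47e-04 to 4.55e-04 for Hspa5, -6.07e-05 to 0.00102 for Hsp90b1, -1.85e-04 to 8.53e-04 for Xbp1, -1.92e-05 to 1.37e-05 for the brighter Pdia3 probe set and -4.63e-07 to 4.05e-06 for Ddit3. Leaving out each animal for the likeness to Hspa5 was added after seeing the data, and it gave 185 to 360 genes at r of at least 0.9, against 171, and a median r of the other endoplasmic reticulum genes of 0.511 to 0.614, against 0.546. The replicate number was not taken as a pairing in the main test. Deviations of same-numbered animals correlated at -0.121, 0.197, 0.355 and 0.140, against -0.285 to 0.192 between animals of different numbers. The labels do not say whether the number marks a batch, and its part in the covariation was not tested. With the replicate number as a block, limma called 0 probe sets (1111 at an unadjusted p under 0.05, against 699), 0 of the 9 and 0 of the other endoplasmic reticulum genes. In within-group SDs the differences then rose to 3.54 for Pdia4, 0.571 for Hspa5, 1.29 for Hsp90b1 and 0.724 for Xbp1. They fell to 0.835 for Calr, 0.689 for Atf4 and 0.211 for Ddit3, and were -0.190 and -1.46 for the brighter and dimmer Pdia3 probe sets.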

Other observations

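The genes outside the correlated group had other nearest genes. Pdia4 was closest to Slc35b2 (r = 0.967), a transporter of the sulfate donor into the Golgi, Runx3 (0.946), a transcription factor of cytotoxic lymphocytes, and Prdm1 (0.943), the factor that drives plasma cell formation and 1 of the listed plasma cell markers. Calr was closest to Mrpl40 (r = 0.943), a mitochondrial ribosomal protein, Gart (0.936), an enzyme of purine synthesis, and Sipa1l3 (0.926). Atf4 was closest to Ip6k1 (r = 0.978), an inositol phosphate kinase, Fam210b (0.957), a mitochondrial protein of red cell precursors, and the ubiquitin ligase Rnf167 (0.946). Ddit3 was closest to the kinase Mapkapk3 (r = 0.955), Gamt (0.954), an enzyme of creatine synthesis, and Rusc1 (0.951). All are descriptions over the 8 arrays, chosen as the highest of many genes.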
